A study of Mus musculus with 17 samples.

Results

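Spleens of mice given a stem-loop RNA, SLR10 or SLR14, were compared with spleens of mice given pppNS, by RNA sequencing of whole tissue. The comparison was defined by the agent in the labels and took 9 of the 17 libraries of the series, 3 each for SLR10, SLR14 and pppNS, with SLR10 and SLR14 pooled into 1 group of 6. The mice were of the strain written CB57BL/6NCrl in the labels. The injection protocol stands with every library in the same words and names only the SLRs, which were carried by the polyethylenimine reagent in vivo-jetPEI (N/P ratio of 8) and given intravenously as 25 µg of RNA in 200 µl. It is not stated apart for pppNS, and neither the time of collection nor the age or sex of the mice is given. The labels do not spell out pppNS, and the letters ppp are the usual shorthand for a 5′ triphosphate. Vehicle (2 libraries) and naive spleens (3 libraries) are quoted as background levels. Each library was taken as 1 mouse, which the labels do not state, so p-values measure the spread between these libraries.

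RIG-I, encoded by Ddx58, is a cytosolic receptor that binds short base-paired RNA carrying a 5′ triphosphate. It signals through MAVS on mitochondria to the kinases TBK1 and IKK, which activate IRF3, IRF7 and NF-kB and turn on the genes of type I interferon and of inflammatory cytokines. Secreted interferon then acts on most cells through a complex that holds STAT2 and IRF9 and binds interferon-stimulated response elements, and interferon gamma acts through its own receptor on a partly separate set of genes. The spleen holds dense lymphocyte areas, macrophages that filter blood and, in the mouse, developing red cells.

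The 250 bases before the start of 4 genes that the results turn on are given here because each carries a match to a motif of these factors. They come from RefSeq, build GRCm38.p6, and are written 5′ to 3′ on the strand of the gene. Capitals mark matches on the printed strand to GAAANNGAA, found in interferon response elements, or GGGANNTTC, found in a form of the NF-kB motif, both searched on both strands.
Ifnb1: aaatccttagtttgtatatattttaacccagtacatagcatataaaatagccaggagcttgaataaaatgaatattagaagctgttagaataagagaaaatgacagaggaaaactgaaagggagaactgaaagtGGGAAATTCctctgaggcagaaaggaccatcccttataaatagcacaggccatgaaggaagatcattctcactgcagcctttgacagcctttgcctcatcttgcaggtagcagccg
Ifna4: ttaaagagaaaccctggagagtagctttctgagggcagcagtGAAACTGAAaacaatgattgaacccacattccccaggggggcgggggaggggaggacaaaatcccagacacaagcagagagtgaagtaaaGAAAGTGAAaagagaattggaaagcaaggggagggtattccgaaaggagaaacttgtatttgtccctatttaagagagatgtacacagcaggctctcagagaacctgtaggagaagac
Cxcl10: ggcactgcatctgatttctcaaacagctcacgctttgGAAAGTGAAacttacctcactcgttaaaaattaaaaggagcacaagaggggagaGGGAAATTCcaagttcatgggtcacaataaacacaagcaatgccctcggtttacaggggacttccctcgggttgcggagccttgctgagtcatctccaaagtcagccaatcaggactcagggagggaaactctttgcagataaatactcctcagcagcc
Isg15: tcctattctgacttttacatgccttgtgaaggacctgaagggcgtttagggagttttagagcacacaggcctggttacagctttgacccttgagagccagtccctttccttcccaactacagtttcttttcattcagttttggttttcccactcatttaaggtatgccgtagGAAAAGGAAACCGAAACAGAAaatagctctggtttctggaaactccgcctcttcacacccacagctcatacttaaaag
These windows lie at chr4:88522795-88523044 on the minus strand for Ifnb1, chr4:88841566-88841815 on the plus strand for Ifna4, chr5:92348890-92349139 on the minus strand for Cxcl10 and chr4:156200819-156201068 on the minus strand for Isg15. The Ifnb1 match to GGGANNTTC began 116 bases before the start. Ifna4 held 2 matches to GAAANNGAA, at 208 and 118 bases before the start, and the 3 matches of Isg15, at 78, 72 and 66 bases, overlapped. Cxcl10 held one motif of each kind, GAAANNGAA at 213 bases and GGGANNTTC at 159 bases before the start. Over 300 bases (250 before to 50 after the start), GAAANNGAA was found in 8.56% of all 32851 RefSeq promoters and in 9.35% of the 9778 tested genes matched to one. GGGANNTTC was found in 3.94% and 4.44%. The counts for lists are of genes with a match in any of their promoters. GAAANNGAA was found for 8 of 11 type I interferon genes and 23 of 47 interferon-stimulated effectors. It was found for 9 of 10 interferon gamma-linked GTPases. Only 10 of the 18 tested GTPases were matched to a promoter. GAAANNGAA was also found for 0 of 6 genes of the interferon lambda and gamma list and for 10 of 48 ribosomal proteins. GGGANNTTC was found for 4 of 6 CXC chemokines. For NF-kB subunits and inhibitors it was found in 3 of 14, and for CC and other chemokines in 0 of 9. A match describes the letters in the window and is not a measured site.

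The 9 libraries held 26.5 to 41.7 M reads, with 15.8 to 24.4 M of them in genes that have a name. The totals include reads on 5 lines that carry no gene name. Values are the authors' normalised counts per 1000000 reads (CPM, with 1000000 written M), in which a single read came to 0.0212 to 0.0431. They compare a gene between libraries and not genes with each other. Tests were made with limma, for genes that reached 1 CPM in 2 or more of the 9 libraries, on log2(CPM + 0.5), and a gene is said to rise or fall with the SLRs where its adjusted p was under 0.05. Differences are SLR minus pppNS on this log2 scale, with standard errors. Of 13479 genes tested, 5404 passed, or 40.1%, with 2789 higher with the SLRs (20.7%) and 2615 lower (19.4%), and the median log2 difference over all genes was -0.02. At least a 2-fold change was seen in 2481 of the called genes. All 6 SLR libraries lay above all 3 pppNS libraries for 19.9% of genes and below them for 15.1%, so the groups did not overlap for 35% of genes. Since bulk tissue was measured, fewer cells of a type and less RNA per cell cannot be told apart in any fall below.

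SLR14 replicate 2 and pppNS replicate 3 stood apart from the other libraries. The mean log2(CPM + 0.5) of 36 erythroid genes was 8.41 in SLR14 replicate 2 against 4.31 to 4.64 in the other 5 SLR libraries, and 7.05, 7.38 and 8.54 in the pppNS libraries. In pppNS replicate 3, 46.1% of reads lay on the lines without a gene name, the highest share of the 9, and short transcripts were high. Against the other pppNS libraries its median log2 deviation was 0.83 in the shortest genes (up to 1818 bases) and -0.59 in the longest (at least 5212 bases). With SLR14 replicate 2 left out 6202 genes passed, with pppNS replicate 3 left out 6609, and with both left out 8802. Calls from the fit without SLR14 replicate 2 were also compared with that library. It lay beyond all 3 pppNS libraries on the side of the call for 84.8% of the 2947 genes called higher. For the 3255 called lower the share was 58.9%, and over all genes the shares were 32.3% and 23.7%. Calls and comparison share the 3 pppNS libraries, which raises the first 2 shares, so they are not an independent replication.

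The largest rises were those of the interferon genes themselves. All 11 type I interferon genes tested rose, with a median log2 difference of 7.01. In each of them all 6 SLR libraries lay above the 3 pppNS libraries. No pppNS library reached 1 CPM in any of the 11, so each passed the filter only through the SLR libraries. The filter itself thus favoured a rise and a separation for every gene tested. Of 18 genes listed 14 were found, and Ifne, Ifnk and Ifnz did not pass the filter. Ifnb1 (chr4:88522025-88522774, minus strand), which encodes interferon beta, was at 158 to 249.8 CPM with the SLRs (median 238) and 0.617, 0.212 and 0.356 CPM with pppNS. It was at 0 and 0.0596 CPM with vehicle and at 0, 0.0175 and 0 CPM in naive spleens. Every SLR library stood far above every pppNS, vehicle and naive library for this gene. The fitted difference was 7.92 ± 0.20 (adjusted p = 1.43e-08), and in reads, 36065 against 41, the ratio of pooled CPM was 565 (95% exact counting interval 416 to 787). Ifna4 (chr4:88841861-88842421, plus strand), an early interferon alpha, was at 78.4 to 118 CPM with the SLRs (median 108) and 0.176, 0.149 and 0 CPM with pppNS. Its log2 difference was 7.38 ± 0.18 (adjusted p = 1.08e-08), and Ifna2 rose by as much (log2 difference 7.59). The pooled ratios were 839 (490 to 1576) for Ifna4 and 796 (497 to 1367) for Ifna2. Ifna13 had no read in any pppNS library and was at least 344-fold higher with the SLRs against 3 reads over the group. Ifna1, Ifna5, Ifna9, Ifna12, Ifna14, Ifna15 and Ifna16 completed the list and were among the 12 largest rises of named genes. The interferon alpha genes are near-identical copies, so how reads were shared among them is uncertain, and intervals cover counting error only. The size of these differences depends on the added 0.5: the median of the 11 genes was 8.76 with 0.1 added and 5.18 with 2 added, and 10.13 in edgeR and 10.19 in DESeq2, which model the reads themselves, and all 11 rose in each.

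Interferon gamma, the product of activated NK and T cells, rose as well. Ifng (chr10:118441046-118445892, plus strand) was at 59.7 to 313 CPM with the SLRs (median 175) and 6.03, 2.36 and 4.12 CPM with pppNS (log2 difference 5.18 ± 0.46, adjusted p = 7.97e-05). The groups did not overlap, and Ifng was at 1.0 and 0.775 CPM with vehicle. Of the 8 tested genes on the list of interferon lambda, interferon gamma and its inducers, 4 rose and none fell (median 1.22). The 3 others that rose were Il27, which encodes a subunit of interleukin 27 (log2 difference 3.78, adjusted p = 0.00013), Il15, a growth factor of NK cells (1.93, adjusted p = 0.00085), and Ifnl2 (1.6, adjusted p = 0.00429), whose near-identical copy Ifnl3 did not pass the filter. Ifnl2 rested on 203 SLR reads and 2 pppNS reads, a pooled ratio of 65.1 (17.8 to 542), and its difference was 5.74 in edgeR and 0.63 with 2 added in place of 0.5. For Il27 the difference was 3.17 without pppNS replicate 2.

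**Figure D1:**
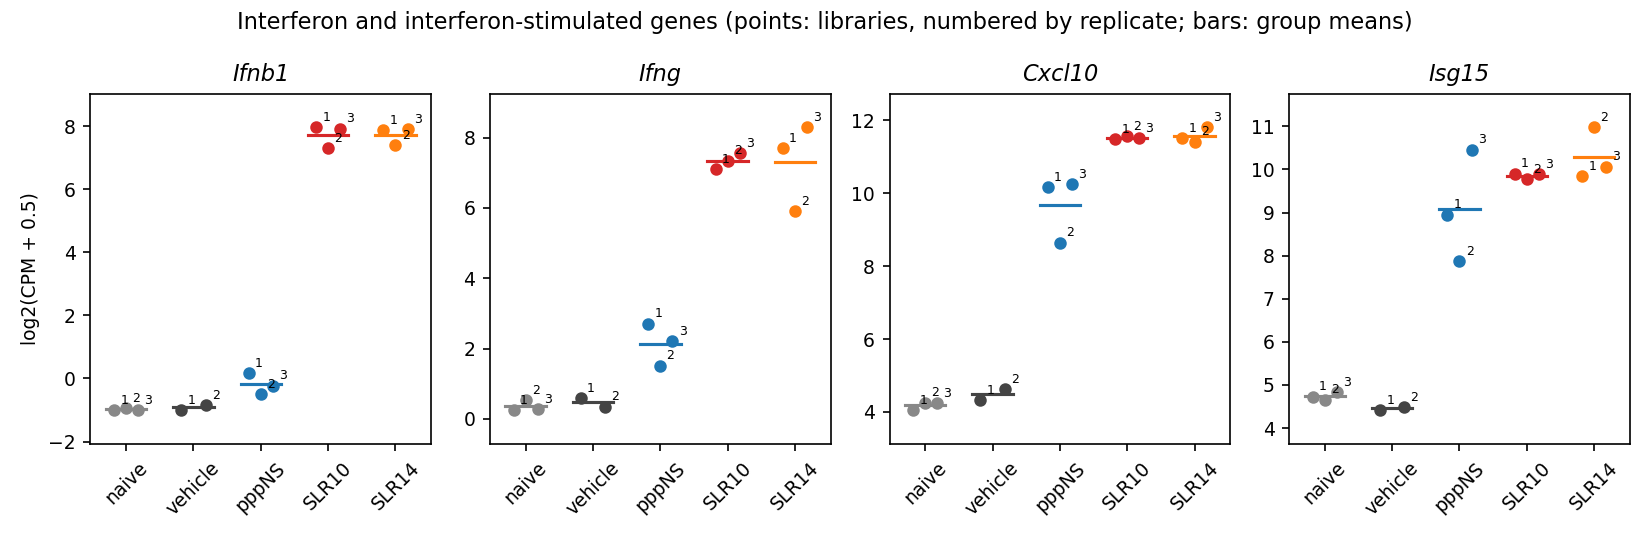
Levels of Ifnb1, Ifng, Cxcl10 and Isg15 in each SLR, pppNS, vehicle and naive library, as log2(CPM + 0.5) on the y axis, with 1 point per library, a bar at the mean of each group and the groups on the x axis. Ifnb1 is near the floor in the pppNS, vehicle and naive libraries, while for Isg15 pppNS replicate 3 lies among the SLR libraries.

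The products of interferon-stimulated genes block viral entry, translation and replication. Of 61 tested genes of this kind, 49 rose and none fell, with a median log2 difference of 1.35. These genes were well above background with pppNS too, and their differences were smaller than those of the interferon genes. Mx1 was at 1229 to 1603 CPM with the SLRs (median 1511) and 672, 251 and 257 CPM with pppNS (log2 difference 2.07 ± 0.3, adjusted p = 0.000692). It was at 30.2 and 34.4 CPM with vehicle, below every pppNS library. The groups did not overlap, and Oas1a, a sensor that makes 2′-5′ oligoadenylate, likewise rose (1.53, adjusted p = 0.00629). Usp18, the protease that removes ISG15, rose by 1.4 (adjusted p = 0.00719), and Slfn4, Zbp1, Oas2 and Mov10 by 2.94, 2.7, 2.51 and 1.7, with adjusted p of 0.000154, 0.000179, 0.000202 and 0.000239. Zbp1 encodes a sensor of left-handed nucleic acid and Mov10 an RNA helicase.

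Some of the best known members did not pass. Isg15, a ubiquitin-like protein, was at 876 to 2010.2 CPM with the SLRs (median 952) and 494, 233 and 1405 CPM with pppNS (log2 difference 0.98 ± 0.49, adjusted p = 0.134). The groups overlapped, because pppNS replicate 3 was above 5 of the 6 SLR libraries, and without that library the difference was 1.67 (adjusted p = 0.00553). Rsad2, or viperin, was at 1445 to 5589 CPM with the SLRs (median 1552) and 1158, 465 and 1666 CPM with pppNS (log2 difference 1.01 ± 0.51, adjusted p = 0.135). Here too the groups overlapped. Ifit1, which binds viral RNA, passed with a difference of 1.22 (adjusted p = 0.0365) but missed the threshold in 8 of the 9 fits that left out 1 library, and without pppNS replicate 2 its difference was 0.62 (adjusted p = 0.0943). Over the whole list 46 members rose without SLR14 replicate 2 and 56 without pppNS replicate 3. Ifit1 also missed the threshold in edgeR (0.97, adjusted p = 0.088). Ifi27 fell in the fit without pppNS replicate 1 and in DESeq2.

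RNA sensors and their adaptors rose in 18 of 24 tested genes, with 1 lower and a median of 0.85. Ddx58, RIG-I itself, was at 693 to 832 CPM with the SLRs (median 712) and 389.9, 182 and 230.3 CPM with pppNS (log2 difference 1.52 ± 0.22, adjusted p = 0.00067). Ifih1, which encodes MDA5, the receptor of long double-stranded RNA, was at 632 to 998 CPM with the SLRs (median 676) and 301, 99.3 and 174 CPM with pppNS (log2 difference 2.04 ± 0.3, adjusted p = 0.000861). Neither gene overlapped between the groups. Rnf135, a ubiquitin ligase of RIG-I, rose by 1.52 (adjusted p = 0.000332), Tbk1, the kinase of IRF3, by 0.93 (adjusted p = 0.00028), and Nlrc5, the transactivator of MHC class I, by 2.41 (adjusted p = 0.000148). Irf7, which amplifies interferon transcription, rose by 1.74 (adjusted p = 0.000409). The adaptor Mavs did not pass (-0.27, adjusted p = 0.385). The 1 member that fell was Nlrx1 (-0.78, adjusted p = 0.00897), and Tlr8 joined it without pppNS replicate 3.

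All 18 GTPases linked to interferon gamma rose, with a median of 2.25, and none of the 18 overlapped between the groups. They encode guanylate-binding proteins and immunity-related GTPases that attack vacuoles of intracellular microbes. Gbp2 was at 1834 to 2571 CPM with the SLRs (median 1983) and 239, 66.3 and 228 CPM with pppNS (log2 difference 3.75 ± 0.37, adjusted p = 0.000137). The pppNS libraries lay well apart from each other, and without pppNS replicate 2 the difference was 3.14. Gbp4 and Gbp5 rose by 2.69 and 2.67 (adjusted p = 0.000215 and 0.000185), and Tgtp1 by 3.55 (adjusted p = 0.000185), or by 4.18 without pppNS replicate 1. Tgtp1 and Tgtp2 are near-identical, and the Gbp genes resemble each other, so reads may be split among them.

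Signal carriers and brakes of the interferon receptors rose in 17 of 24 genes and fell in 1 (median 0.96). Stat3 rose by 1.46 (adjusted p = 0.000107), Irf8, a factor of myeloid and B cells, by 2.4 (adjusted p = 7.99e-05), and Cish and Socs2, inhibitors of cytokine receptors, by 1.7 and 1.76 (adjusted p = 9.78e-05 and 0.000204). Ifngr2, a chain of the interferon gamma receptor, fell by 0.62 (adjusted p = 0.00772) and the other chain, Ifngr1, had a difference of -0.31 (adjusted p = 0.0859). Ifngr1 also fell without pppNS replicate 3 and under quantile scaling, which gives every library the same distribution of values.

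Among CXC chemokines 6 of 9 rose and none fell (median 1.85). Cxcl10 (chr5:92346638-92348889, minus strand), which draws activated T and NK cells, was at 2736 to 3589 CPM with the SLRs (median 2922) and 1153, 399.7 and 1216 CPM with pppNS (log2 difference 1.86 ± 0.33, adjusted p = 0.00221). It was at 19.6 and 24.3 CPM with vehicle, so the pppNS libraries lay between vehicle and SLR. Cxcl9, a ligand of the same receptor as Cxcl10, rose by 3.41 (adjusted p = 0.000248), and by 2.75 without pppNS replicate 2. Cxcl11 rose by 3 (adjusted p = 0.000407), and by 2.35 without that library. Cxcl11 is annotated as a polymorphic pseudogene in GENCODE vM21, so its RNA may not give a working chemokine. The neutrophil attractants Cxcl2 and Cxcl5 rose by 2.21 (adjusted p = 0.000246) and 1.85 (adjusted p = 0.000914). Cxcl12 (-0.48, adjusted p = 0.063) fell where SLR14 replicate 2 or pppNS replicate 3 was left out, in DESeq2 and under quantile scaling.

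Of 15 CC and other chemokines 9 rose and none fell (median 1.73). Ccl11, or eotaxin, was at 16.5 to 36.4 CPM with the SLRs (median 28.3) and 1.09, 0.615 and 1.67 CPM with pppNS (log2 difference 4.1 ± 0.27, adjusted p = 1.84e-05). Cx3cl1, a membrane-bound chemokine of endothelium, was at 30.4 to 42.8 CPM with the SLRs (median 34.3) and 2.65, 1.57 and 1.32 CPM with pppNS (log2 difference 3.98 ± 0.2, adjusted p = 2.92e-06). Both were low in every pppNS library and did not overlap. Ccl2, which draws monocytes, was at 204 to 255 CPM with the SLRs (median 229) and 64.8, 25 and 96.1 CPM with pppNS (log2 difference 2.08 ± 0.34, adjusted p = 0.00134), and Ccl5 and Ccl8 rose by 2.48 (adjusted p = 0.000239) and 1.73 (adjusted p = 0.000128), with 3.35 for Ccl8 in edgeR. The lymphoid organ chemokine Ccl19 did not pass (-0.2, adjusted p = 0.706), with a difference of 0.40 (adjusted p = 0.189) without pppNS replicate 3.

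Inflammatory cytokines rose in 17 of 20 genes, with none lower (median 1.64). Il6 was at 85.4 to 142 CPM with the SLRs (median 101) and 12, 3.99 and 15.6 CPM with pppNS (log2 difference 3.41 ± 0.35, adjusted p = 0.000171). Tnf was at 121 to 165 CPM with the SLRs (median 153) and 56.6, 42.3 and 83.3 CPM with pppNS (log2 difference 1.34 ± 0.2, adjusted p = 0.000778). Neither gene overlapped between the groups. Il1rn, the antagonist of interleukin 1, rose by 2.77 (adjusted p = 4.09e-05), Il33, an alarm cytokine of stromal cells, by 2.73 (adjusted p = 5.91e-05), and Tnfsf15 by 3.38 (adjusted p = 0.000156). Il1b rose by 0.99 (adjusted p = 0.0265), but missed the threshold without SLR10 replicate 3, SLR14 replicate 1 or pppNS replicate 2 (adjusted p = 0.0522, 0.0555 and 0.0928), and under quantile scaling (0.8, adjusted p = 0.0597).

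All 17 genes of NF-kB subunits and their inhibitors rose, at a median of 1.02. Tnfaip3, or A20, a brake of NF-kB, was at 231 to 306 CPM with the SLRs (median 271) and 113, 71.2 and 33.4 CPM with pppNS (log2 difference 2.05 ± 0.31, adjusted p = 0.000867). The inhibitors Nfkbie and Nfkbid rose by 1.17 (adjusted p = 0.000399) and 1.06 (adjusted p = 0.00142), and Birc3, a ubiquitin ligase of the pathway, by 1.4 (adjusted p = 0.000397). Nfkbia rose by 0.8 (adjusted p = 0.0182), with adjusted p of 0.0514 without pppNS replicate 1 and 0.0668 without pppNS replicate 2, and a difference of 0.41 (adjusted p = 0.0647) under quantile scaling. Of 20 immediate early genes 10 rose and none fell (median 0.69), among them Jun, Myc, Fos and Atf3 at 2.01, 1.71, 1.73 and 1.8 (adjusted p = 0.000475, 0.000746, 0.000752 and 0.000208). Btg2 fell without SLR14 replicate 2 and under quantile scaling, and with both libraries that stood apart left out 17 of the 20 rose.

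Genes of itaconate, nitric oxide and glycolysis rose in 15 of 22 cases and fell in 1 (median 0.82). Irg1, which makes itaconate in activated macrophages, was at 135 to 317 CPM with the SLRs (median 172) and 33.5, 9.83 and 38.8 CPM with pppNS (log2 difference 2.94 ± 0.41, adjusted p = 0.000612). No library overlapped, and the difference was 2.33 without pppNS replicate 2. Ptgs2, or cyclooxygenase 2, rose by 3.27 (adjusted p = 3.05e-05), the hexokinases Hk2 and Hk3 by 2.3 (adjusted p = 5.25e-05) and 1.7 (adjusted p = 7.23e-05), and Pfkp, a phosphofructokinase, by 1.91 (adjusted p = 0.000247). The lactate exporter Slc16a3 fell (-1.31, adjusted p = 0.00212).

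Checkpoint and costimulatory genes rose in 15 of 18 cases and none fell (median 1.31). Tnfsf4, or OX40 ligand, was at 5.48 to 12.6 CPM with the SLRs (median 8.02) and 0.588, 0.318 and 0.249 CPM with pppNS (log2 difference 3.35 ± 0.24, adjusted p = 2.87e-05). Ido1, which degrades tryptophan, rose by 2.86 (adjusted p = 4.06e-06), Cd86, a ligand of CD28, by 1.64 (adjusted p = 0.000166), and Tnfrsf9, or 4-1BB, by 1.8 (adjusted p = 0.000244). In edgeR Tnfsf4 and Ido1 were at 4.47 and 4.87. Genes of pyroptosis and necroptosis rose in 10 of 15 cases with none lower (median 1.41), including Casp8 (1.68, adjusted p = 0.00064), its regulator Cflar (1.72, adjusted p = 0.00036) and Gsdmd, the pore-former of pyroptosis (1.41, adjusted p = 0.000234). Without pppNS replicate 3, Havcr2 fell on the first of these lists and Nlrc4 on the second.

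MHC class I presentation rose in 16 of 22 genes with none lower (median 0.98), in 10 under quantile scaling and in all 22 without pppNS replicate 3. Tapbpl, a peptide editor, was at 104 to 123 CPM with the SLRs (median 112) and 42.8, 29.1 and 22 CPM with pppNS (log2 difference 1.87 ± 0.18, adjusted p = 0.00013). The groups did not overlap. Erap1, which trims peptides, and H2-Q4 rose by 1.24 (adjusted p = 0.000239) and 1.03 (adjusted p = 0.000655), though H2-Q genes share sequence and reads may be split among them. Of 13 genes of MHC class II presentation 2 rose, Ctss (0.91, adjusted p = 0.00302) and Rfx5 (0.38, adjusted p = 0.0405), and H2-Ob fell (-0.62, adjusted p = 0.0202), at a median of -0.18. Both shares lay below those of all genes. Under quantile scaling neither Ctss (0.48, adjusted p = 0.0786) nor Rfx5 passed and 3 genes fell. Rfx5 also missed the threshold in 6 of the fits without 1 library, and H2-Eb2 fell without pppNS replicate 3. Ciita, the master regulator of class II, had a difference of 1.04 (adjusted p = 0.185), which was 0.00 without pppNS replicate 3.

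**Figure D2:**
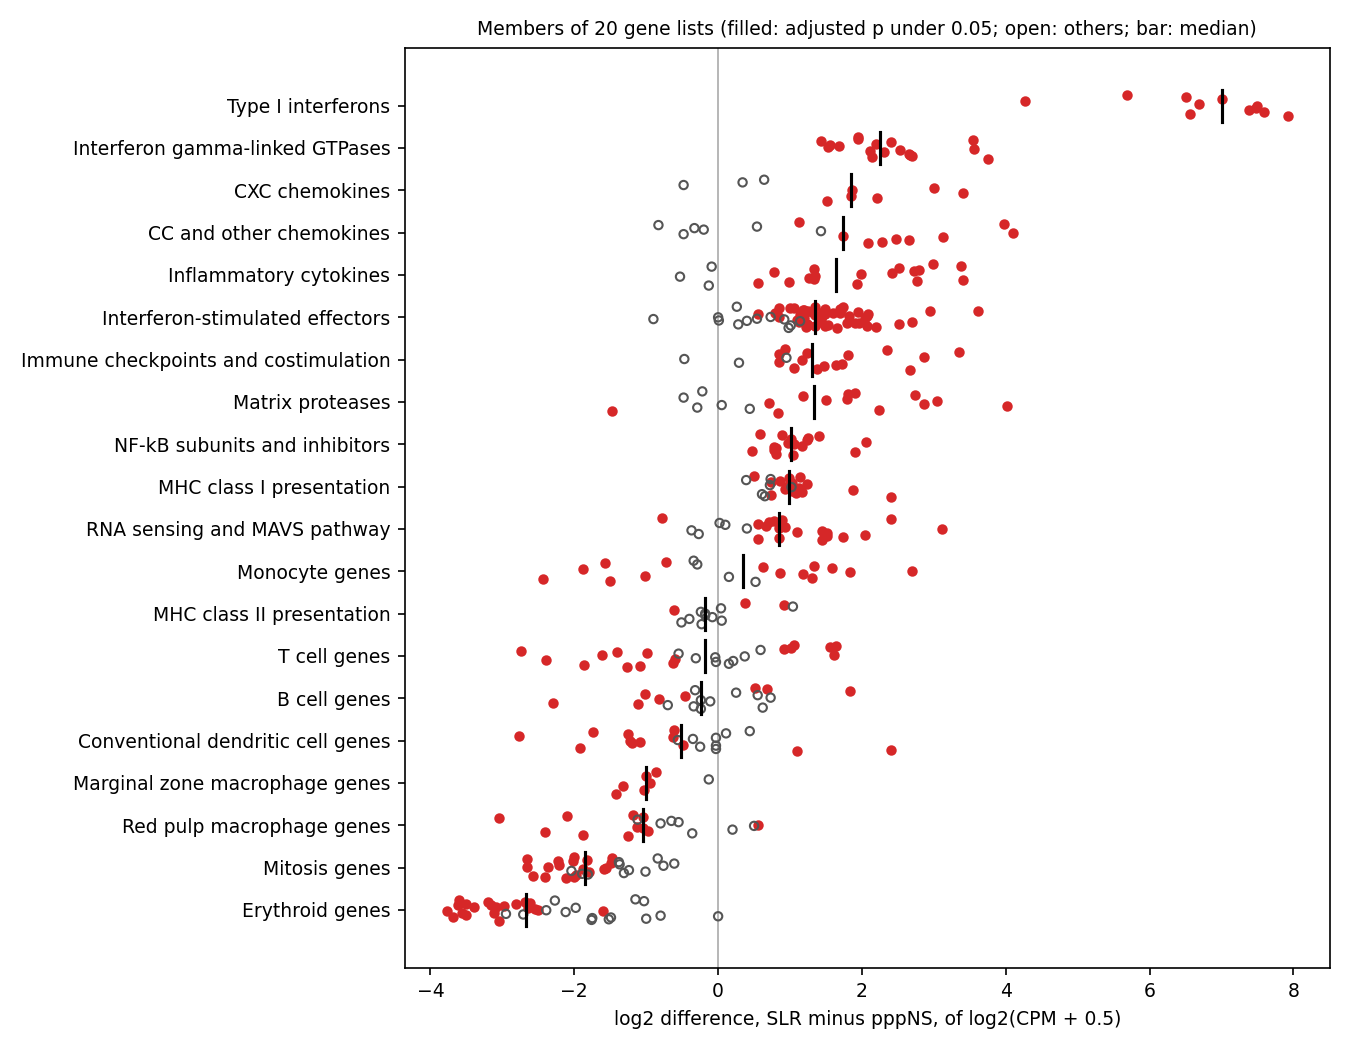
Log2 difference (SLR minus pppNS, x axis) of every tested member of 20 gene lists (y axis), with filled points for genes past the threshold, open points for the rest and a vertical bar at the median of each list. All 11 type I interferon genes lie above 4, and the medians of the erythroid and mitosis lists are -2.67 and -1.85.

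Among the 12 largest falls under the rule for named genes were Emilin2, Crip2, Snx22, Thy1, Adamts5, Marveld1, Ssbp3, Slc40a1, Ypel3, Cd5 and Fam101b, with log2 differences from -3.38 for Emilin2 to -2.38 for Fam101b. Emilin2, a matrix glycoprotein, was at 1.43 to 16.6 CPM with the SLRs (median 1.95) and 21.3, 40.2 and 43.3 CPM with pppNS (log2 difference -3.38 ± 0.64, adjusted p = 0.0031). It was at 12.1 and 12.5 CPM with vehicle, between the SLR median and the pppNS libraries. By the rule, none of the 12 overlapped between the groups.

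Of 24 T cell genes 10 fell and 6 rose (median -0.18). Cd5, a brake of the antigen receptor, was at 3.17 to 5.56 CPM with the SLRs (median 4.22) and 23.9, 25.1 and 23.6 CPM with pppNS (log2 difference -2.39 ± 0.17, adjusted p = 3.02e-05). Thy1 was at 4.73 to 8.36 CPM with the SLRs (median 7.49) and 42.4, 42.9 and 63.2 CPM with pppNS (log2 difference -2.74 ± 0.21, adjusted p = 4.32e-05). In both genes every SLR library lay below every pppNS library, and Cd5 was at 31.8 and 27.4 CPM with vehicle. Cd3g, a chain of the receptor complex, fell (-1.87, adjusted p = 0.000247), and Ccr7, the homing receptor for lymph nodes, rose (1.56, adjusted p = 0.00011). Cd8a (-0.03, adjusted p = 0.893) and Lck (-0.04, adjusted p = 0.826) did not pass, and the sign of both turned without 1 library. Of 18 B cell genes 5 fell and 3 rose (median -0.24). Over all genes 19.4% fell and 20.7% rose, so the B cell counts were not far from those shares. T cell genes fell more often than all genes and rose at a share not far from theirs. Fcer2a, or CD23, was at 14.7 to 20.1 CPM with the SLRs (median 17.7) and 131, 127 and 42 CPM with pppNS (log2 difference -2.29 ± 0.32, adjusted p = 0.00064). Cr2 and Fcrla also fell (-1.11, adjusted p = 0.00104 and -1.02, adjusted p = 0.000185), and Cxcr5, the follicle homing receptor, rose (1.84, adjusted p = 0.000352). Cd79a (-0.34, adjusted p = 0.364) did not pass, except under quantile scaling, where it was among 9 B cell genes that fell, and 6 B cell genes rose without pppNS replicate 1. Of 11 plasma cell genes Irf4 and Prdm1 rose (0.86, adjusted p = 0.0133 and 1.24, adjusted p = 0.00129). Sdc1 fell (-0.96, adjusted p = 0.00707). Both plasma cell counts lay below the shares over all genes, though 6 rose without pppNS replicate 3.

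Genes of cytotoxic and NK cells split, with 7 of 17 higher and 5 lower (median 0.43). Gzmb, granzyme B, was at 73.6 to 131 CPM with the SLRs (median 112) and 14.3, 5.2 and 7.93 CPM with pppNS (log2 difference 3.58 ± 0.28, adjusted p = 4.7e-05). Eomes and Tbx21, which drive effector fate, rose by 2.39 (adjusted p = 8.19e-05) and 1.54 (adjusted p = 0.00013), while Klrd1, or CD94, fell by 1.9 (adjusted p = 0.000229). The other genes that fell were Klrb1c, Klra8, Nkg7 and Klrc2 (-1.07, -1.33, -0.79 and -0.58). Nkg7 missed the threshold in 8 of the 9 fits without 1 library and Klrc2 in 7. Under quantile scaling they were at -0.69 and -0.35 and neither passed.

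Of 20 genes of conventional dendritic cells, 10 fell and 2 rose (median -0.52). Xcr1, the receptor of cross-presenting dendritic cells, was at 1.53 to 2.31 CPM with the SLRs (median 1.73) and 9.08, 8.09 and 7.72 CPM with pppNS (log2 difference -1.92 ± 0.15, adjusted p = 4.73e-05). Snx22 was at 0.757 to 11.2 CPM with the SLRs (median 1.55) and 14.1, 24.5 and 14.2 CPM with pppNS (log2 difference -2.77 ± 0.6, adjusted p = 0.00565). Neither overlapped, and Xcr1 was at 14.9 and 15.7 CPM with vehicle. Naaa and Sirpa fell by 1.74 (adjusted p = 0.000139) and 1.26 (adjusted p = 0.000185), whereas Batf3 did not pass (-0.03, adjusted p = 0.961) and rose by 0.61 without pppNS replicate 3 (adjusted p = 0.0174). Irf8 and Tlr3, the 2 that rose, are also on the signalling lists above. Of 11 plasmacytoid dendritic cell genes Irf7 and Il3ra rose and Siglech fell (-0.45, adjusted p = 0.0258). Both counts lay below the shares over all genes (20.7% higher and 19.4% lower). Il3ra (1.34, adjusted p = 0.0195) missed the threshold without pppNS replicate 1 or 2 and in edgeR (1.1, adjusted p = 0.0659), and was at 1.95 without pppNS replicate 3. Siglech missed it in 5 of the fits without 1 library and under quantile scaling. Without pppNS replicate 3, 4 of these genes rose and 2 fell.

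Macrophage genes fell more often than they rose. Of 18 red pulp macrophage genes 10 fell and 1 rose (median -1.05), and of 7 marginal zone macrophage genes 6 fell and none rose (median -1). All SLR libraries lay below all pppNS libraries for 7 of the red pulp genes. Without pppNS replicate 3, 8 red pulp genes fell and 0 rose (median -0.68). Sirpa, Treml4 and Epor on the red pulp list also stand on the dendritic cell, monocyte and erythroid lists. Slc40a1, the iron exporter ferroportin, was at 15.5 to 28.1 CPM with the SLRs (median 19.3) and 91.4, 132 and 102 CPM with pppNS (log2 difference -2.41 ± 0.21, adjusted p = 7.03e-05). Marco, a scavenger receptor, was at 37.2 to 62 CPM with the SLRs (median 47.5) and 87.5, 107 and 234 CPM with pppNS (log2 difference -1.42 ± 0.28, adjusted p = 0.00393). With vehicle Marco was at 54.1 and 79.7 CPM, a range that overlapped the SLR libraries and lay below every pppNS library. In naive spleens it was at 115, 67.4 and 114 CPM. Siglec1, Cd209b and Mrc1 fell by 1.32, 1.03 and 1 on the log2 scale, and Cd5l by 2.1. Axl, the red pulp gene that rose (0.55, adjusted p = 0.0273), missed the threshold in 5 of the fits without 1 library and was at 0.15 (adjusted p = 0.62) under quantile scaling. Of 18 monocyte genes 8 rose and 6 fell (median 0.34). Cx3cr1, the receptor of patrolling monocytes, was at 0.476 to 0.953 CPM with the SLRs (median 0.611) and 6.23, 6.98 and 4.3 CPM with pppNS (log2 difference -2.43 ± 0.19, adjusted p = 4.74e-05, or -3.11 in edgeR), and Treml4 and Ccr2 fell by 1.88 and 1.5. Vcan, a proteoglycan of classical monocytes, rose by 2.7 (adjusted p = 2.53e-05).

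**Figure D3:**
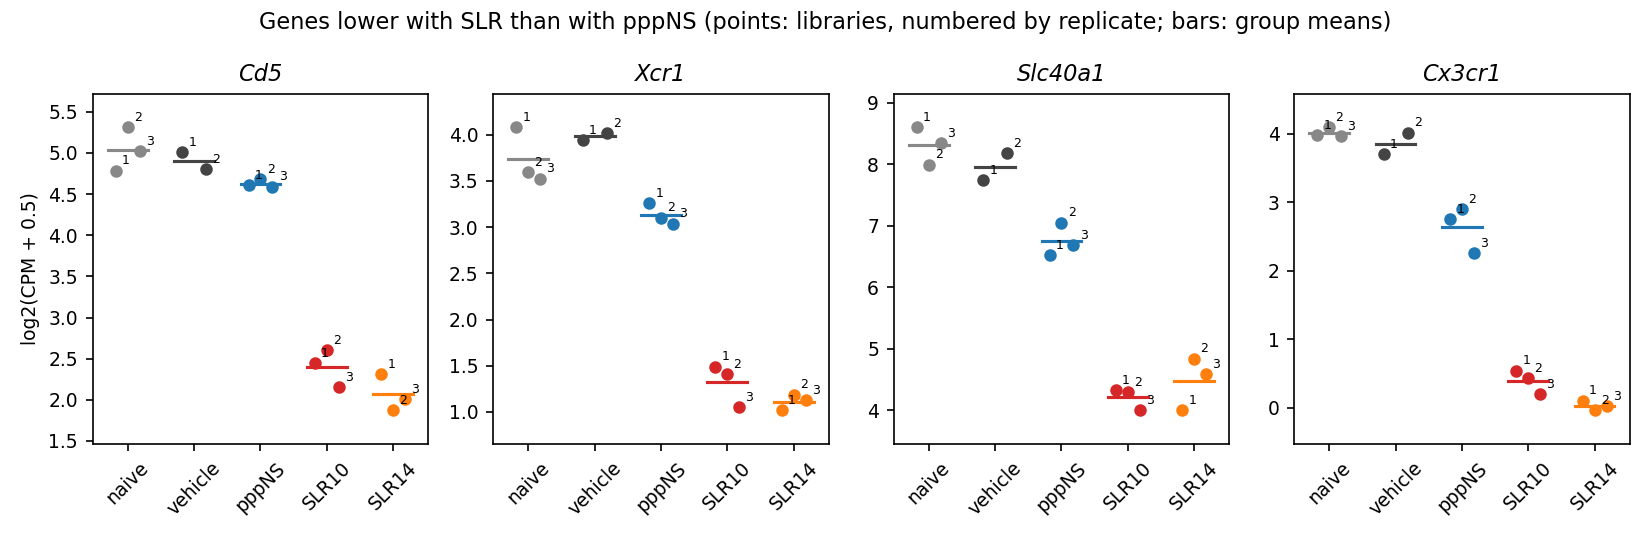
Levels of Cd5, Xcr1, Slc40a1 and Cx3cr1 in each SLR, pppNS, vehicle and naive library, as log2(CPM + 0.5) on the y axis, with 1 point per library, a bar at the mean of each group and the groups on the x axis. All 6 SLR libraries lie below all 3 pppNS libraries in each of these genes.

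Vessel genes moved in both directions, and the stromal genes that passed mostly fell. Of 17 endothelial identity genes 7 fell and 2 rose (median -0.35), with Sox18, a vascular factor, at 0.641 to 2.44 CPM with the SLRs (median 1.14) and 8.41, 12.3 and 8.93 CPM with pppNS (log2 difference -2.59 ± 0.28, adjusted p = 0.000205). Egfl7, Tek and Tie1 fell as well (-1.19, -1.14 and -0.58), and Cdh5 (1.14, adjusted p = 0.0136) and Robo4 (0.54, adjusted p = 0.0154) rose. Robo4 was lost without pppNS replicate 2, while Flt1 and Kdr were added without pppNS replicate 1. Of 16 endothelial activation genes 9 rose and 2 fell (median 0.73): Procr, Selp and Icam1 rose by 2.51, 1.77 and 1.46, and Ackr1 (-2.31, adjusted p = 0.0267) and Thbd (-0.73, adjusted p = 0.0148) fell. Ackr1 missed the threshold in 6 of the 9 fits without 1 library, and in edgeR (-2.32, adjusted p = 0.0613), and both did without pppNS replicate 2. Of 24 stromal genes 7 fell and Pdpn rose (0.68, adjusted p = 0.03). Over all genes 19.4% fell and 20.7% rose, so the stromal share that fell was not far above. The call of Pdpn was lost in 4 of the 9 fits without 1 library and under quantile scaling (0.6, adjusted p = 0.0832), while edgeR gave 1.27. Tlx1, a factor of spleen stroma, fell by 1.93 (adjusted p = 0.000113), and Il7, the lymphocyte survival factor, by 1.56 (adjusted p = 0.000558), with -2.24 in edgeR. With both libraries that stood apart left out 13 stromal genes fell and 3 rose.

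Among matrix proteases and their inhibitors 12 of 18 rose and Mmp9 fell (-1.47, adjusted p = 0.000186), at a median of 1.34. Adamts4, which cleaves aggrecan, was at 58.8 to 90.1 CPM with the SLRs (median 82.2) and 20.5, 7.43 and 4.76 CPM with pppNS (log2 difference 3.04 ± 0.36, adjusted p = 0.000284). The groups did not overlap. Mmp25 and Serpina3f rose by 2.86 (adjusted p = 0.000241) and 2.74 (adjusted p = 7.01e-05), and Timp2 fell without pppNS replicate 3. Of 17 complement genes 6 rose, including C1s1, C1ra and Serping1 (0.85, 0.93 and 1.04), and 2 fell, Cd55 (-1.89, adjusted p = 4.73e-05) and C6 (-0.86, adjusted p = 0.0183), with 5 lower without pppNS replicate 1 and 4 to 6 lower in edgeR, in DESeq2 and under quantile scaling. Of 16 genes of the glucocorticoid and metallothionein list 5 rose and none fell, led by Cdkn1a (2.16, adjusted p = 0.000474) and Mt2 (1.81, adjusted p = 0.00923). The count was 3 without pppNS replicate 1 and 9 without pppNS replicate 3, and the difference of Mt2 was 1.19 and 2.48. With all libraries in, the complement and glucocorticoid lists rose more often than all genes (20.7%) and fell less often (19.4%). Of 20 cholesterol synthesis genes 6 fell and 3 rose, not far from the shares over all genes (19.4% lower and 20.7% higher). Among them were Mvk (-1.13, adjusted p = 0.00192), Dhcr7 (-1.14, adjusted p = 0.000466) and Insig1 (1.14, adjusted p = 0.000443). Of 18 platelet genes Selp and Thbs1 rose (1.58, adjusted p = 0.00108 for Thbs1), and Clec1b (-0.78, adjusted p = 0.0657) fell without pppNS replicate 2, in edgeR and in DESeq2 (-0.99 in both). Of 19 neutrophil genes Mmp8 and Il1r2 rose (0.83, adjusted p = 0.0456 and 1.11, adjusted p = 0.0183) and Mmp9 fell. The platelet and neutrophil counts lay below the shares over all genes in both directions. Mmp8 missed the threshold in 7 of the 9 fits without 1 library and Il1r2 without pppNS replicate 1 or 2, and 4 neutrophil genes rose without pppNS replicate 3.

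Red cell and cell cycle transcripts turned on SLR14 replicate 2. Hbb-bs, an adult beta globin, was at 1137 to 13308 CPM with the SLRs (median 2068) and 3313, 2266 and 14997 CPM with pppNS (log2 difference -1 ± 0.81, adjusted p = 0.336). The groups overlapped, because SLR14 replicate 2 held 13308 CPM and the next highest SLR library 2102 CPM. Of 36 erythroid genes 21 fell and none rose (median -2.67), yet none of the 36 separated the groups. In edgeR none of the 36 passed and in DESeq2 2 fell. Without SLR14 replicate 2, 32 fell, without pppNS replicate 3 only 1, and with both left out 34. Rhd, Slc25a37, Add2 and Aqp1, which encode membrane, skeleton and mitochondrial proteins of red cells, had differences of -3.77, -2.5, -3.51 and -2.98. Without SLR14 replicate 2 those of Rhd, Add2 and Aqp1 were -4.60, -4.32 and -3.63, and without pppNS replicate 2 Slc25a37, Add2 and Aqp1 did not pass. In edgeR the 4 genes were at -2.34, -1.87, -1.89 and -1.91 (adjusted p = 0.176, 0.103, 0.246 and 0.147), and Aqp1 did not pass in DESeq2 either (-1.92, adjusted p = 0.123). The mean level of the list was 4.42 and 5.10 in the vehicle libraries and 5.65 to 6.46 in naive spleens, so the 5 other SLR libraries lay in or near the vehicle range and the pppNS libraries above it. Leaving out any other SLR library left 6 called, and leaving out pppNS replicate 2 left 2.

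Of 30 mitosis genes 19 fell and none rose (median -1.85), and of 29 DNA replication genes 9 fell and none rose (median -1.15). In edgeR 6 and 3 genes fell, and 10 mitosis genes fell in DESeq2. Under quantile scaling 16 replication genes fell, and with no filter on low genes 12 and 5. No member of either list separated the groups. The mean log2(CPM + 0.5) of the mitosis genes was 6.22 in SLR14 replicate 2 and 3.37 to 3.64 in the other SLR libraries, against 5.21 to 6.25 with pppNS. Vehicle libraries were at 3.77 and 3.89 and naive spleens at 4.47 to 4.71. Cdc20, which activates the anaphase-promoting complex, was at 5.69 to 29.1 CPM with the SLRs (median 5.94) and 19.8, 36.5 and 47.2 CPM with pppNS (log2 difference -1.98 ± 0.51, adjusted p = 0.0132). Racgap1 fell by 1.82 (adjusted p = 0.0152). Without SLR14 replicate 2 all 30 mitosis and 28 of the replication genes fell, and with pppNS replicate 3 out as well the counts were 30 and 28. Without pppNS replicate 3 alone the counts were 4 and 1, without pppNS replicate 2 they were 4 and 0, and without any 1 of the other SLR libraries 6 to 7 and 3. Rrm2, Tk1 and Dut, enzymes of nucleotide supply, had differences of -2.5, -2.38 and -1.27, and did not pass without pppNS replicate 2 or pppNS replicate 3. In edgeR Rrm2 was at -1.72 (adjusted p = 0.139) and Tk1 at -1.92 (adjusted p = 0.0858), and Dut kept its call. The erythroid and cell cycle levels moved together over these libraries, and the part of one in the other was not tested.

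**Figure D4:**
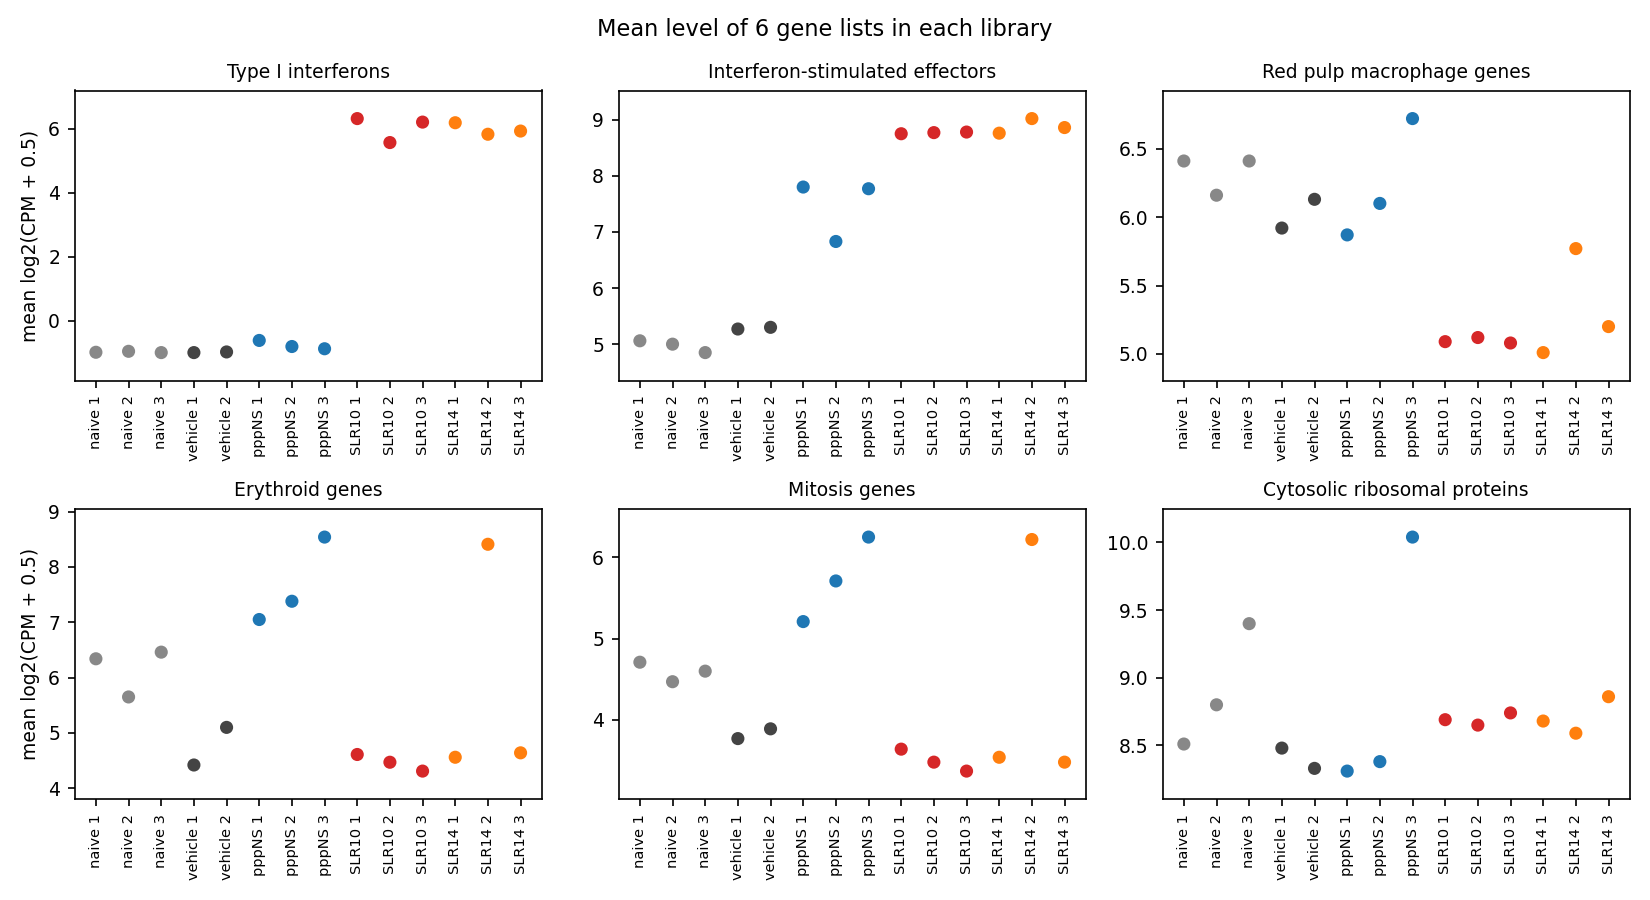
Mean log2(CPM + 0.5) over the tested members of 6 gene lists (1 panel each, y axis) in each SLR, pppNS, vehicle and naive library (x axis). SLR14 replicate 2 is at 8.41 for the erythroid genes, apart from the other SLR libraries, and pppNS replicate 3 is at 10.04 for the ribosomal proteins.

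Ribosomal protein and respiratory chain transcripts turned on pppNS replicate 3. The mean log2(CPM + 0.5) of 64 cytosolic ribosomal proteins was 10.04 in that library, 8.31 and 8.38 in the other pppNS libraries and 8.59 to 8.86 with the SLRs. Of the 64 genes Rpl15 rose (0.37, adjusted p = 0.0212) and none fell (median -0.25). Without pppNS replicate 3, 51 rose at a median of 0.36, so the direction of the list turned with that library, and Rpl15, Rpl4, Rpl5 and Rpl7a had differences below 0 under quantile scaling, where 34 of the 64 fell. Rpl15 missed the threshold without SLR10 replicate 1. Of 40 oxidative phosphorylation genes none passed (median -0.55), with 3 lower in edgeR, 5 in DESeq2, 5 under quantile scaling and 7 without pppNS replicate 1 and 3 higher without pppNS replicate 3. Of 12 housekeeping genes Pgk1 rose (0.38, adjusted p = 0.0129) and Gusb fell (-0.5, adjusted p = 0.00774), and 5 rose without pppNS replicate 3. Pgk1 was at 0.24 (adjusted p = 0.137) under quantile scaling. The library pppNS replicate 3 was also the one in which short transcripts in general were high. Transcript lengths of these lists were not compared, and the part of length in these values was not tested.

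SLR10 and SLR14 are stem-loop RNAs that differ in the length of the stem, which is longer in SLR14, and were given at the same stated dose. This was the 1 pair of compounds compared. Of 13479 genes 0 passed the threshold between them (limma), 41 had an unadjusted p under 0.05, and the 95% interval of the difference lay within 2-fold for 77.4% of genes. With 3 libraries each, and 1 of them SLR14 replicate 2, a missed threshold does not show that both act alike. Ifnb1 averaged 217 CPM with SLR10 and 215 CPM with SLR14, a log2 difference (SLR14 minus SLR10) of 0.00 with an interval of -0.57 to 0.57. For Ifna4 the difference was -0.01 (-0.51 to 0.50), and for Ifng -0.04 (-1.30 to 1.23). Rsad2 averaged 1511 and 2988 CPM, with a difference of 0.73 (-0.57 to 2.03), and Hbb-bs 1556 and 5815 CPM, with 1.35 (-0.63 to 3.34). Both SLR14 means rest on SLR14 replicate 2: without it they were 1688 CPM for Rsad2 and 2068 CPM for Hbb-bs. Of the 25 panel genes, 14 had an interval within 2-fold in both directions. Against pppNS the 2 agents gave 7.92 and 7.92 for Ifnb1, 3.36 and 3.47 for Il6, and -2.55 and -2.28 for Slc40a1, values that share the pppNS libraries.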

How the data were processed

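Spleen RNA of 17 libraries was sequenced from stranded mRNA libraries. Per the submitters' processing notes, which give no roles or order, the builds were mm10 and GRCm38 and the tools edgeR, HTSeq, SAMtools 1.4, TopHat, TopHat2 2.0.6 and FastQC. Annotation and strand setting are not given in the sources used here, so overlapping and antisense genes cannot be told apart. The deposited table holds signal values, reads per gene that the authors divided by an edgeR-normalised library size (CPM). Whole reads were recovered from its steps (100.0% of values within 0.01). Of 39184 lines, 5 without a gene name, 699 named #N/D, 27 with dates for names and 113 further lines that repeat 87 names were left out. The lines without a name held 33.7% to 46.1% of reads.

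Genes that reached 1 CPM in 2 or more of the 9 libraries were fitted with limma 3.58.1 (R 4.3.3, trend) on log2(CPM + 0.5), with the 6 SLR libraries as 1 group and Benjamini-Hochberg adjustment over all 13479 genes. The script was tested on simulated data. The added 0.5 draws low genes towards 0, and intervals are 95% intervals. A gene under 1 CPM in every library of 1 group, such as Ido1 or Cx3cr1, passed the filter only through the other group. Members and gene lists were chosen with earlier results of these data known. Named genes are the 12 largest rises and 12 largest falls that did not overlap and averaged 5 CPM or more (receptor segments and numbered gene models aside), up to 4 members of each list with the smallest adjusted p, and a panel of 25. Ackr1, Axl, Batf3, Btg2, C6, Ccl19, Cd79a, Cd8a, Cdh5, Cxcl12, Flt1, H2-Eb2, Havcr2, Ifi27, Ifngr1, Ifngr2, Kdr, Klra8, Klrb1c, Klrc2, Lck, Mavs, Nkg7, Nlrc4, Nlrx1, Pdpn, Robo4, Slc16a3, Tgtp2, Thbd, Timp2, Tlr3 and Tlr8 were chosen after their values were seen. Some genes under these rules are not reported here. Gene positions are from GENCODE vM21. Alternatives were other pseudocounts, filters, scalings and models, count models in DESeq2 1.42.0 and edgeR 4.0.16 run on recovered reads, a replicate block, and each library left out.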

Additional observations from a re-analysis of the deposited data

Results flagged for a closer look

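In the 6 SLR libraries, the highest or lowest library lay further from the rest than 95% of random groups of 6 allow for 51 of 196 named genes and 16 of 40 gene lists. Chance gives about 1 in 20 for separate items not chosen by their values. These items share the same libraries and many genes were chosen by their values, so that rate is no reference for the counts. SLR14 replicate 2 was the library apart in 48 of these genes and 15 of these lists, and SLR14 replicate 3 in the rest. Values are log2(CPM + 0.5), averaged over members for a list, with the range of the other 5 SLR libraries.

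SLR14 replicate 2 was high, with a mean of 5.77 for red pulp macrophage genes (others 5.01 to 5.2), 4.12 for marginal zone macrophage genes (others 3.46 to 3.62), 8.41 for erythroid genes (others 4.31 to 4.64), 6.2 for DNA replication genes (others 4.06 to 4.21), 6.22 for mitosis genes (others 3.37 to 3.64) and 5.44 for complement (others 4.73 to 4.95). Its mean was also high, at 5.8 for oxidative phosphorylation (others 5.39 to 5.53). It was low on other lists, with 4.66 for CC and other chemokines (others 4.83 to 4.88), 4.57 for inflammatory cytokines (others 4.98 to 5.17), 6.43 for NF-kB subunits and inhibitors (others 6.73 to 6.89), 7.05 for MHC class II presentation (others 7.47 to 7.62), 2.65 for cytotoxic and NK cell genes (others 3.06 to 3.21) and 4.2 for T cell genes (others 4.83 to 4.98). Further low means were 6.83 for B cell genes (others 7.22 to 7.34) and 4.51 for immune checkpoints and costimulation (others 4.81 to 4.93).

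Single genes at which SLR14 replicate 2 was high had 3.34 for Ackr1 (others 0.38 to 1.08), 6.32 for Add2 (others 1.08 to 1.89), 8.25 for Aqp1 (others 4.16 to 4.39), 7.54 for Btg2 (others 6.65 to 6.92), 4.89 for Cdc20 (others 2.63 to 2.84), 3.71 for Crip2 (others 2.03 to 2.55) and 5.34 for Dut (others 3.82 to 4.0). Others had 4.1 for Emilin2 (others 0.95 to 1.6), 13.7 for Hbb-bs (others 10.15 to 11.04), 5.75 for Ifi27 (others 4.64 to 4.86), 9.96 for Ifih1 (others 9.31 to 9.42), 10.97 for Isg15 (others 9.78 to 10.06), 4.93 for Mavs (others 3.93 to 4.29) and 8.35 for Oas1a (others 7.69 to 7.93). It also reached 5.59 for Racgap1 (others 3.31 to 3.68), 7.38 for Rhd (others 2.12 to 2.8), 7.6 for Rrm2 (others 3.86 to 4.31), 12.45 for Rsad2 (others 10.5 to 10.85), 6.48 for Sirpa (others 5.97 to 6.12), 9.34 for Slc25a37 (others 5.89 to 6.19) and 3.54 for Snx22 (others 0.33 to 1.31). Further high values were 4.62 for Ssbp3 (others 2.28 to 2.65), 9.5 for Tgtp2 (others 8.53 to 8.84), 6.38 for Tk1 (others 3.19 to 3.47), 9.96 for Usp18 (others 9.31 to 9.54) and 5.06 for Ypel3 (others 3.44 to 3.85).

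Genes at which it was low had 7.92 for Birc3 (others 8.39 to 8.54), 8.22 for Cd79a (others 8.68 to 8.89), 7.52 for Cd86 (others 7.88 to 8.08), 5.43 for Cd8a (others 5.92 to 6.02), 6.47 for Cdkn1a (others 7.0 to 7.22), 8.15 for Cflar (others 8.49 to 8.55) and 5.88 for Cish (others 6.06 to 6.11). Other low values were 8.55 for Ctss (others 9.01 to 9.2), 7.46 for Cxcr5 (others 8.11 to 8.4), 5.15 for Eomes (others 5.59 to 5.72), 6.71 for Gsdmd (others 7.0 to 7.11), 6.69 for H2-Ob (others 7.29 to 7.44), 8.49 for Icam1 (others 8.71 to 8.81) and 5.9 for Irf4 (others 6.42 to 6.74). It was likewise at 1.25 for Klrc2 (others 1.77 to 1.96), 1.48 for Klrd1 (others 2.05 to 2.33), 10.26 for Mx1 (others 10.54 to 10.65), 8.27 for Nfkbia (others 8.62 to 8.76), 6.0 for Nfkbid (others 6.54 to 6.84), 9.51 for Nlrc5 (others 9.77 to 9.93) and 6.92 for Tnf (others 7.22 to 7.37). The remaining low values were 9.94 for Zbp1 (others 10.46 to 10.54).

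SLR14 replicate 3 was apart at 3.09 for cholesterol synthesis (others 3.36 to 3.47), 5.02 for Il1r2 (others 3.99 to 4.36), 5.46 for Mmp8 (others 4.07 to 4.59) and 1.34 for Nlrx1 (others 1.85 to 2.13). The cause of these differences was not tested.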

How the results depend on the processing

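Against 5404 genes past the threshold (2789 higher, 2615 lower), the count ran from 4243 to 6609 when 1 library was left out (2277 to 3495 higher, 1948 to 3255 lower). It was 8802 (4229 and 4573) without both SLR14 replicate 2 and pppNS replicate 3, chosen after seeing the data, 9636 (4610 and 5026) with library weights, whose estimation did not fully converge, and 1291 (750 and 541) with SLR14 as the only SLR, while SLR10 alone gave 1842 higher. The cause was not tested, though fewer libraries enter the last 2. The counts under the other scalings, filters and pseudocounts, in edgeR (5128) and in DESeq2 (6001) were within 1.5 times. The replicate block gave 5343, ended the call of Mmp8 (adjusted p = 0.0569) and added calls of Cxcl12 and Timp2 (0.0235 and 0.0467). Deviations of equal replicate numbers correlated at -0.127 to 0.397, and those of unequal numbers at -0.333 to 0.214. With 3 libraries per agent, these values cannot show whether the numbers pair the libraries.

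Of 196 named genes, 171 passed, and 116 of these kept direction and call under all 25 alternatives in which they could be tested. The sign turned for some genes. Quantile scaling gave -0.06, -0.18, -0.15 and -0.13 for Rpl15, Rpl4, Rpl5 and Rpl7a, 0.16 for Batf3 and 0.06 for Nlrc4. Library weights gave 0.67 for Batf3, 0.61 for Ccl19, 0.23 for Cd79a, 0.17 for Cd8a and 0.23 for Lck. Without SLR14 replicate 2 and pppNS replicate 3 together, Batf3 was at 0.67, Ccl19 at 0.48, Cd79a at 0.19, Kdr at -0.11 and Lck at 0.16, and with SLR10 alone Batf3 was at 0.01, Ccl19 at 0.06 and Cd8a at 0.07. With 1 library left out, values ran from -0.38 to 0.61 for Batf3, -0.60 to 0.40 for Ccl19, -0.60 to 0.10 for Cd79a, -0.12 to 0.12 for Cd8a, -0.00 to 1.59 for Ciita, -0.17 to 0.61 for Kdr, -0.19 to 0.11 for Lck, -0.54 to 0.17 for Nlrc4 and -1.38 to 0.17 for Tlr8. Of these genes only Rpl15 had passed. Depth limits the interferon genes with pppNS, which rest on 0 to 41 reads over 3 libraries for type I genes.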
